A study of Mus musculus with 36 samples.

Results

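Cirbp and Rbm3 encode the cold-inducible RNA-binding proteins CIRBP and RBM3. They are 2 of the 39017 genes counted in the cochlea of mice, were chosen by name, and both passed the filter on low counts. The study sequenced messenger RNA from whole cochleae of CBA/Sca mice aged 12 weeks that were either sham operated or adrenalectomized (ADX). In each status, cochleae were collected at 6 circadian times, every 4 h from CT04 to CT24, and 3 libraries were made for each of the 12 groups, 36 in all. Strain, age and tissue were shared by all groups, the sham libraries were the controls, and the labels give no sex, lighting or hormone replacement. The series asks how far circadian transcription in the cochlea depends on the adrenal glands, the main source of corticosterone.

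CIRBP and RBM3 are small proteins that pair an RNA recognition motif with a glycine-rich tail and bind messenger RNA to influence its stability, polyadenylation and translation. Their transcripts rise in cells kept slightly below normal body temperature and fall on warming, opposite to heat shock genes, whose products are chaperones made when proteins unfold. In mammals both follow the daily rhythm of body temperature, and CIRBP binds the transcript of the clock gene Clock in cultured cells. CT12 is by convention the start of the active phase of a nocturnal animal.

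Cirbp (ENSMUSG00000045193) lies on chromosome 10, bases 80165985 to 80172786 of the plus strand in GENCODE M21 on the GRCm38 build. Rbm3 (ENSMUSG00000031167) lies on chromosome X, bases 8138975 to 8145880 of the minus strand. Rbm3os (ENSMUSG00000055188), an antisense gene on chromosome X, bases 8145429 to 8147964, overlaps Rbm3 by 452 bases. With the strand setting of the counting not given in the sources used here, reads within the overlap cannot be assigned to either gene with certainty. Rbm3os averaged 0.654 CPM (counts per 1000000 counts of the library), against 148 CPM for Rbm3, and passed no test of rhythm (adjusted p = 0.535 in sham and 0.708 in ADX, edgeR).

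The Cirbp promoter is shown because an 8-base element reported to answer mild cold lies in it, and because the gene moved with circadian time here. RefSeq (GRCm38.p6) gives Cirbp 2 starts, and the window of 250 bases before the upstream start holds the element TCCCCGCC, at chromosome 10, bases 80167592 to 80167599 of the plus strand, 247 bases before that start. The first 189 bases of the window, chr10:80167589-80167777, end just before the first base of an exon in GENCODE, and are printed 5′ to 3′ on the plus strand with the element in capitals.

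Cirbp promoter: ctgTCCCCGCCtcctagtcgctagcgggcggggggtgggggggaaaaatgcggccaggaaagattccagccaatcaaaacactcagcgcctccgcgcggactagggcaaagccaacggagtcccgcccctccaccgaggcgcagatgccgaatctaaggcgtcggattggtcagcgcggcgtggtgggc

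TCCCCGCC was searched on both strands, and 4.64% of the 32851 RefSeq promoter windows of the same length held it. The upstream Cirbp window also held 3 copies of GGGCGG, the GC box bound by SP1, and 2 of ATTGG, the CCAAT box, which 32.7% and 33.8% of windows held at least once. The window of the downstream start held 4 copies of GGGCGG and no TCCCCGCC. A further 4 motifs were searched without a match in either window: the heat shock unit pair GAANNTTC (in 6.69% of windows), the E-box CACGTG of CLOCK and BMAL1 (6.02%), the glucocorticoid response core ACANNNTGT (5.84%) and the D-box TTATGTAA of DBP (0.819%). A match or its absence describes these letters only.

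Totals ran from 18999408 to 28995197 counts in sham libraries and from 20351081 to 28947793 in ADX libraries. Cirbp held 1255 to 4417 counts per library and Rbm3 2303 to 5404, for a counting error of 1.36 to 2.82%. The spread between the 3 libraries of a group was larger in most groups (coefficient of variation 2.47 to 14.9% for Cirbp and 0.606 to 17.4% for Rbm3). Hair cell markers (8 of 8 detected, summed level 166 to 283 CPM) and markers of supporting cells and cochlear epithelium (8 of 8, 5130 to 8189 CPM) were present in every library. Summed levels of 12 skeletal muscle markers lay between 105 and 151 CPM in sham and reached 858 CPM in ADX, highest in CT20 replicate 3, CT12 replicate 1 and CT16 replicate 2. Of this sum, Pvalb alone averaged 98.3 CPM in sham and 111 CPM in ADX. Summed levels of 7 pituitary markers reached 1607 CPM in sham and 239 CPM in ADX. Of this sum, Chga alone averaged 74.2 CPM in sham and 78.4 CPM in ADX. Gh exceeded 50 CPM in 5 libraries (sham CT16 replicate 3 and CT08 replicates 2 and 3, ADX CT24 replicates 1 and 2). Fits without these 5 keep a single library each at sham CT08 and ADX CT24. B lymphocyte markers had a median summed level of 1540 CPM in sham and 1818 CPM in ADX, and osteoblast markers 1668 and 1388 CPM. In ADX 9 of 9 B lymphocyte genes had a log2 fold change above 0 over the mean of the 6 times, with 1 called higher by edgeR. For osteoblast genes it was 0 of 8, with 3 called lower. Of all 22556 tested genes, 11443 were above 0, 0.346% were called higher and 0.372% lower. Erythroid markers had medians of 23783 and 19894 CPM and granulocyte markers 7741 and 7197 CPM, and 0 of 8 and 0 of 9 of these genes had a log2 fold change above 0 in ADX over the mean of the 6 times, with 1 granulocyte gene called lower by edgeR. In whole tissue, fewer cells of a type and less RNA per cell cannot be told apart.

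Cirbp was highest at CT08 and lowest at CT16 in both statuses, and its level at the highest time was 2.45 times that at the lowest in sham and 2.20 times in ADX. In sham libraries Cirbp measured 124, 94.2 and 109 CPM at CT04. At CT08 it measured 153, 131 and 122 CPM. At CT12 the values were 127, 106 and 103 CPM. These 9 libraries overlapped from one time to the next, and all of them exceeded every sham library of CT16 and CT20. Cirbp in sham was 61.4, 52.1 and 52.2 CPM at CT16. It stood at 67.8, 61.1 and 53.0 CPM at CT20, overlapping CT16. At CT24 the 3 sham libraries lay at 94.1, 90.9 and 89.8 CPM, clear of CT20 below and, by a narrow margin, of CT04 above.

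Cirbp in ADX libraries ran through the same order of highest and lowest times. It was 128, 119 and 118 CPM at CT04. At CT08 it reached 154, 150.2 and 134 CPM. At CT12 it was 116, 119.7 and 133 CPM. The CT08 libraries stood clear of CT12, while CT12 overlapped CT04 and CT04 overlapped CT24. Cirbp in ADX was 66.9, 74.5 and 57.9 CPM at CT16. It remained at 57.4, 65.6 and 77.1 CPM at CT20. At CT24 it was 121, 110.1 and 103 CPM. The 6 ADX libraries of CT16 and CT20 overlapped each other and lay below all 12 others.

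Rbm3 was highest at CT08 in sham and CT12 in ADX and lowest at CT20 in both, with a highest level 1.78 times the lowest in sham and 1.79 times in ADX. In sham Rbm3 measured 162, 139 and 154 CPM at CT04. At CT08 it measured 158, 221 and 175 CPM, the widest spread of its groups. At CT12 it measured 166, 195 and 173 CPM. Rbm3 at CT08 and CT12 overlapped in sham, and CT12 stood clear of CT04. Its sham levels were 120.0, 106 and 109 CPM at CT16. They were 104, 92.5 and 114 CPM at CT20. They were 157, 148 and 128 CPM at CT24. The CT16 and CT20 libraries overlapped and lay below every other sham library.

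In ADX libraries Rbm3 was 154, 158 and 161 CPM at CT04. At CT08 it was 189, 189 and 182 CPM. At CT12 it was 187, 189 and 187 CPM. The CT08 and CT12 libraries overlapped and lay above all other ADX libraries. Rbm3 in ADX was 135, 121 and 117 CPM at CT16. Its CT20 values were 86.9, 115 and 112 CPM, below every CT16 library. Its CT24 values were 158, 129 and 144 CPM, which overlapped both CT04 and CT16.

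**Figure D1:**
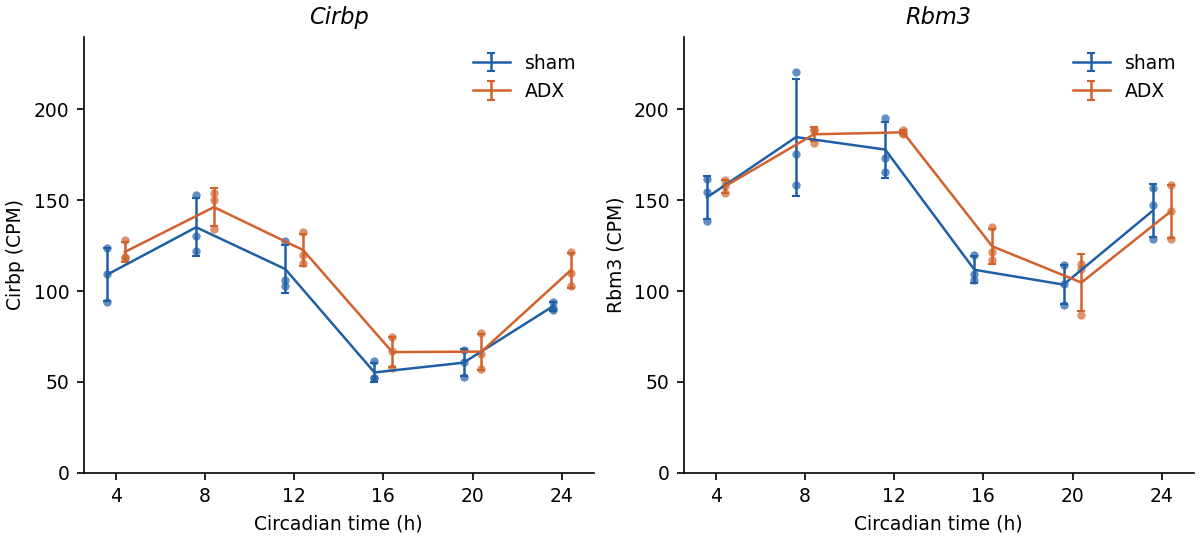
Level of Cirbp (left) and Rbm3 (right) in CPM, computed from counts with TMM scaling, against circadian time in hours; points are libraries, lines join group means and bars show 1 SD (n = 3), with sham in blue and ADX in orange, drawn slightly apart. Cirbp lies between 52.1 and 77.1 CPM at CT16 and CT20 and at 89.8 CPM or more at the other times, and Rbm3 follows a shallower course with its lowest means at CT20.

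Which of the genes was more abundant depended on the scale. On the CPM scale, Rbm3 averaged 146 in sham and 151 in ADX, above Cirbp at 94.0 and 106 CPM (n = 18 libraries each). Per kilobase of the gene length given in the table, 765 bases for Cirbp and 1396 bases for Rbm3, the order turned: Cirbp averaged 123 ± 40.2 CPM per kilobase in sham and 138 ± 41.1 in ADX, and Rbm3 104 ± 24.7 and 108 ± 23.1 (SD, n = 18). The labels do not say how that length was set.

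Both genes passed the test of a 24 h rhythm in both statuses. A cosine curve of 24 h was fitted to each gene with edgeR, and its peak-to-trough is the fitted difference, on the log2 scale, between highest and lowest level. Cirbp had a peak-to-trough of 1.25 ± 0.14 in sham (SE, 95% interval 0.97 to 1.53), which is 2.38-fold, with a peak at 6.80 ± 0.42 h (edgeR adjusted p = 5.0e-07). In ADX it was 1.17 ± 0.14 (0.89 to 1.45), or 2.25-fold, with a peak at 6.57 ± 0.45 h (edgeR adjusted p = 7.9e-06). Rbm3 had a peak-to-trough of 0.81 ± 0.11 in sham (0.58 to 1.04), or 1.75-fold, with a peak at 7.61 ± 0.54 h (edgeR adjusted p = 3.2e-05). In ADX it was 0.79 ± 0.11 (0.56 to 1.02), or 1.73-fold, with a peak at 8.11 ± 0.55 h (edgeR adjusted p = 1.2e-04).

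Of the 22556 genes tested, 3628 were called rhythmic in sham (16.08%) and 2120 in ADX (9.4%) at an adjusted p under 0.05. By p-value Cirbp ranked 53 in sham and 19 in ADX, and Rbm3 161 and 58. By size, Cirbp ranked 174 among the genes called in sham and 305 among those called in ADX, whose median peak-to-trough was 0.33 and 0.36. Rbm3 ranked 522 in sham and 524 in ADX. Without the 3 libraries of highest muscle level the peak-to-trough of Cirbp was 1.26 in sham and 1.22 in ADX, and that of Rbm3 0.81 and 0.76. Without the 5 libraries with Gh over 50 CPM these values were 1.26 and 1.22 for Cirbp and 0.74 and 0.86 for Rbm3. All of them were still called.

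The rhythm of neither gene passed the test of a difference between ADX and sham (edgeR, unadjusted p = 0.844 for Cirbp and 0.808 for Rbm3, adjusted p = 0.9997 for both). The peak-to-trough of Cirbp in ADX minus sham was -0.08, with a 95% interval from -0.48 to 0.31, and its peak time differed by -0.23 h (-1.47 to 1.02 h). For Rbm3 these differences were -0.01 (-0.34 to 0.31) and 0.49 h (-1.06 to 2.05 h). For Cirbp the interval thus includes a peak-to-trough lower in ADX by up to 0.48 on the log2 scale, beside the 1.25 of sham. Across all genes the same edgeR test called 0 genes (0%). Its unadjusted p was under 0.05 for 805 genes (3.57%), and DESeq2 called 1.

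The largest moves between neighbouring times were the fall from CT12 to CT16 and the rise from CT20 to CT24, which were chosen for testing after the values had been seen. From CT12 to CT16 Cirbp fell by 1.02 ± 0.12 on the log2 scale in sham (SE, edgeR adjusted p = 7.4e-07) and by 0.89 ± 0.11 in ADX (edgeR adjusted p = 2.3e-05). Over the same step Rbm3 fell by 0.67 ± 0.11 in sham (edgeR adjusted p = 1.3e-04) and by 0.59 ± 0.11 in ADX (edgeR adjusted p = 0.0013). The libraries of CT12 and CT16 did not overlap for either gene in either status, and 6.35% of all tested genes were called lower over this step in sham and 1.44% in ADX. In sham these were 1432 lower against 1236 higher calls, or 1084 against 1465 when scaled by library totals. In ADX they were 325 lower against 690 higher calls, or 216 against 737.

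From CT20 to CT24 Cirbp rose by 0.60 ± 0.11 in sham (edgeR adjusted p = 0.0078) and by 0.74 ± 0.11 in ADX (edgeR adjusted p = 5.7e-04). Rbm3 rose by 0.48 ± 0.11 in sham (edgeR adjusted p = 0.029) and by 0.46 ± 0.11 in ADX (edgeR adjusted p = 0.029). Higher calls over this step made up 0.173% of all genes in sham and 0.395% in ADX. The rise of Rbm3 lost its call without sham CT20 replicate 2 (0.40, adjusted p = 0.285), CT24 replicate 1 (0.41, 0.180) or CT24 replicate 2 (0.46, 0.149), and in ADX without CT20 replicate 1 (0.34, 0.208), CT24 replicate 1 (0.38, 0.150) or CT24 replicate 3 (0.46, 0.0881). The rise of Cirbp in sham lost it without CT20 replicate 3 (0.51, adjusted p = 0.0792). Leaving out the 5 libraries with high Gh kept a single library at ADX CT24. The ADX rises were then 0.62 for Cirbp and 0.46 for Rbm3.

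Cirbp was 0.18 ± 0.05 higher in ADX than in sham on the log2 scale over the mean of the 6 times (SE, a 1.13-fold difference), which missed the threshold (edgeR adjusted p = 0.0576, unadjusted p = 5.5e-04). Its sham libraries ran from 52.1 to 152.8 CPM with a median of 94.2, and its ADX libraries from 57.4 to 154.2 CPM with a median of 117, so the statuses overlapped widely across times. Within times, the ADX mean was above the sham mean at 6 of 6 times, and at CT24 all 3 ADX libraries lay above all 3 sham libraries. The comparison called 162 of all genes (0.718%), 78 of them higher in ADX (0.346%) and 84 lower (0.372%), or 141 higher and 59 lower when scaled by library totals. DESeq2 called Cirbp higher (0.18, adjusted p = 0.0171), while with muscle and granulocyte marker scores as covariates the difference was 0.10 (edgeR adjusted p = 0.627). The difference was 0.13 without the 5 libraries with high Gh, a fit with a single library each at sham CT08 and ADX CT24. The part of the B lymphocyte, osteoblast and erythroid levels given above was not tested.

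Rbm3 differed by 0.05 ± 0.04 between ADX and sham over the mean of the 6 times (SE, edgeR adjusted p = 0.607). Its sham libraries ran from 92.5 to 220.6 CPM with a median of 151, and its ADX libraries from 86.9 to 188.7 CPM with a median of 156. The ADX mean was higher at 5 of 6 times, and at 0 times were all ADX libraries above all sham libraries.

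No single time gave a call for either gene. The ADX value of Cirbp exceeded the sham value by 0.16 at CT04, 0.11 at CT08, 0.13 at CT12, 0.26 at CT16, 0.14 at CT20 and 0.28 at CT24, each with an SE of 0.11 or 0.12 (edgeR adjusted p from 0.596 to 0.9999). The values at CT16 and CT24 had the lowest unadjusted p (0.030 and 0.018, edgeR). For Rbm3 the differences were 0.06, 0.01, 0.07, 0.16, 0.02 and -0.00 in the same order, each with an SE of 0.11 (edgeR adjusted p from 0.717 to 0.9999). Of all genes, edgeR called 0 at CT04, CT08, CT12, CT16 and CT24 (0%) and 1 at CT20 (0.00443%). Its unadjusted p was below 0.05 for 966 to 2097 genes a time (4.28 to 9.3%). With DESeq2 the numbers of genes called were 77 at CT04, 7 at CT12, 20 at CT16 and 183 at CT20.

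**Figure D2:**
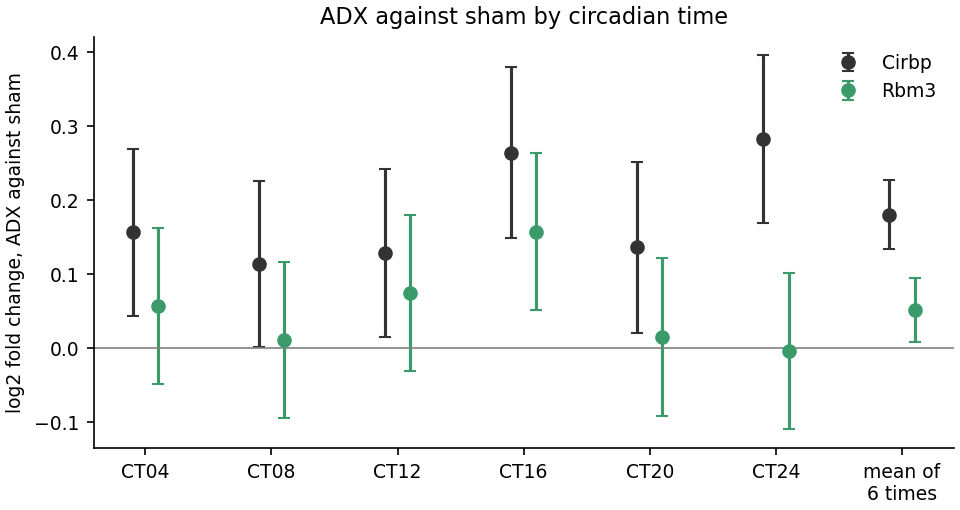
Log2 fold change of ADX against sham for Cirbp (black) and Rbm3 (green) at each circadian time and over the mean of the 6 times; points are edgeR estimates and bars 1 SE. The Cirbp estimates lie between 0.11 and 0.28 at all times and the Rbm3 estimates between -0.00 and 0.16.

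The genes did not keep a fixed proportion through the day. The ratio of Rbm3 to Cirbp counts, in which library scaling cancels, averaged 1.40 ± 0.08 at CT04, 1.39 ± 0.33 at CT08, 1.61 ± 0.28 at CT12, 2.03 ± 0.07 at CT16, 1.73 ± 0.37 at CT20 and 1.57 ± 0.13 at CT24 in sham (SD, n = 3). In ADX it averaged 1.30 ± 0.08, 1.28 ± 0.07, 1.53 ± 0.11, 1.89 ± 0.23, 1.57 ± 0.16 and 1.29 ± 0.12 in the same order. The ratio was thus lowest at CT08 and highest at CT16, where Cirbp had already reached its lowest level. A 24 h cosine fitted to the log2 ratio had a peak-to-trough of 0.51 in sham, peaking at 17.4 h (n = 18, permutation test with 100000 resamples, p = 0.0096, 0.0096 after adjustment over 2 tests). In ADX the peak-to-trough was 0.54, peaking at 16.204 h (n = 18, permutation p = 6.0e-05, adjusted 1.2e-04).

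**Figure D3:**
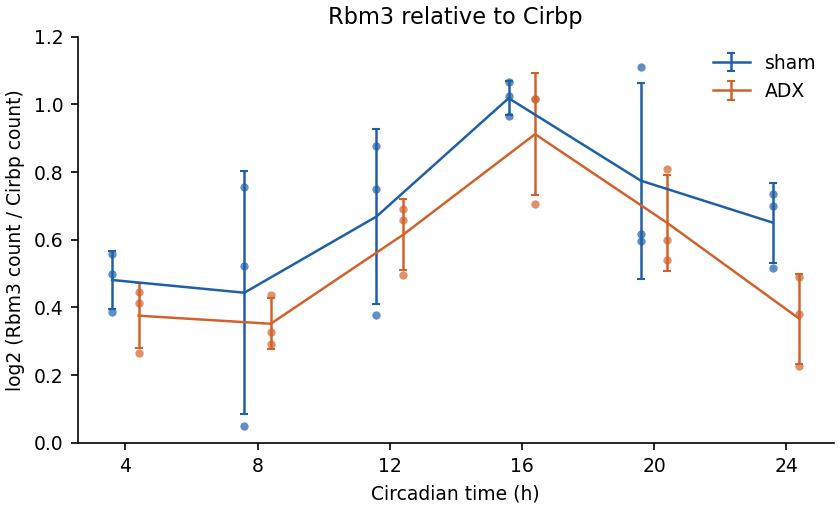
Log2 ratio of Rbm3 to Cirbp counts against circadian time in hours; points are libraries, lines join group means and bars show 1 SD (n = 3), sham in blue and ADX in orange. In both statuses the mean is lowest at CT08 (0.44 and 0.35) and highest at CT16 (1.02 and 0.91).

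Heat shock genes ran opposite to both genes. Of 25 listed heat shock genes, 22 were called rhythmic in sham and 19 in ADX, against 16.08% and 9.4% of all tested genes. The 22 peaks in sham fell between 16.5 and 18.6 h, close to the fitted troughs of Cirbp at 18.8 h and Rbm3 at 19.6 h. The median peak-to-trough of the list was 0.55 in sham and 0.50 in ADX, against 0.22 and 0.18 over all tested genes. In sham, Hspa1b, an inducible HSP70, had a peak-to-trough of 2.16 ± 0.33 and a peak at 17.1 h. Hspb1, the small chaperone HSP27, had 1.67 ± 0.17 and 18.3 h, and Hsph1, the HSP70 exchange factor HSP105, 1.29 ± 0.18 and 17.9 h. Hspa1a, the other inducible HSP70, had 1.18 ± 0.24 and 16.7 h (SE). None of the list was called for a difference in rhythm between statuses (edgeR, adjusted p over all genes). Over the mean of the 6 times all 25 had a log2 fold change below 0 in ADX, while 11443 of the 22556 tested genes had one above 0. Over that mean 0.372% of all tested genes were called lower. Of the list edgeR called 1 lower, the endoplasmic reticulum chaperone Hspa5 (-0.12, adjusted p = 0.043). That call was lost without the 3 libraries of highest muscle level, without the 5 with high Gh and in 23 of 36 fits that each left out 1 library.

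Within groups, libraries with more Cirbp had lower heat shock levels. The heat shock score was the mean log2 CPM of the 25 genes, and the deviation of each of the 36 libraries from its group mean removes time and status. Deviations of Cirbp and of the score had Pearson r = -0.78 and Spearman rho = -0.76 (n = 36, permutation within groups, p = 3.0e-05 and 4.0e-05, adjusted over 3 relations 9.0e-05 and 1.2e-04), and r was -0.73 without the 2 libraries farthest from the median. For Rbm3 the values were r = -0.40 and rho = -0.33 (permutation p = 0.095 and 0.118, adjusted 0.143 and 0.176), and r was -0.29 without 2 libraries. Cirbp and Rbm3 themselves had r = 0.19 and rho = 0.23 (permutation p = 0.432 and 0.305, adjusted 0.432 and 0.305). Among 13054 protein-coding genes averaging 5 CPM or more and outside the heat shock list, Cirbp had the lowest r with the score, while Rbm3 ranked 749. That ranking was made after the relation had been seen. The median r was -0.01, and the lowest 5% of genes were at or below -0.41.

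**Figure D4:**
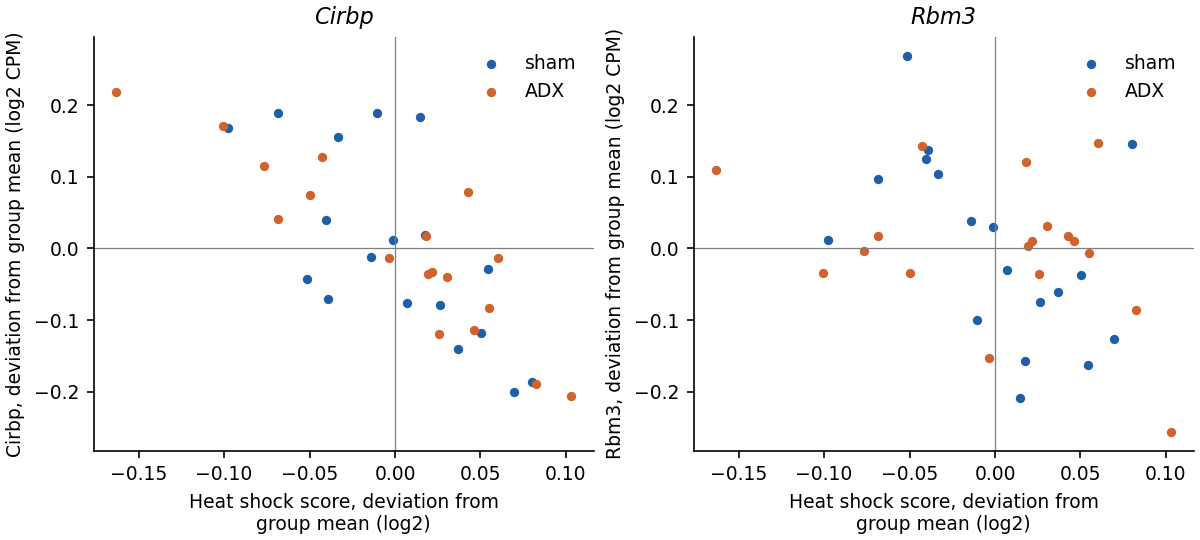
Deviation of Cirbp (left) and Rbm3 (right) from the mean of its group, in log2 CPM, against the deviation of the heat shock score of the same library; each point is 1 of 36 libraries, sham in blue and ADX in orange. Cirbp declines as the score rises (r = -0.78), and Rbm3 scatters more widely (r = -0.40).

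The RNA-binding relatives had smaller fitted rhythms than either gene. Of 24 glycine-rich and heterogeneous nuclear RNA-binding relatives, 11 were called rhythmic in sham and 10 in ADX, where 16.08% and 9.4% of all tested genes were called. Their median peak-to-trough was 0.19 and 0.16, against 0.22 and 0.18 over all tested genes. Their peaks split: 5 of the 11 in sham fell in the first 12 h, and 6 in the second. Hnrnpc, a packaging protein of nuclear transcripts, had the largest peak-to-trough in sham (0.54 ± 0.07, peak at 19.6 h). Smaller values were those of the splicing activator Tra2a (0.37 ± 0.06, 17.7 h) and Hnrnpd, the decay factor AUF1 (0.35 ± 0.08, 4.5 h). Rbmx, which carries a like RNA recognition motif, had 0.23 ± 0.06 and a peak at 5.5 h. All 24 lay below the 1.25 of Cirbp and the 0.81 of Rbm3 in sham. None of 8 cold-shock domain proteins, an unrelated family of nucleic acid binders that includes Ybx1, was called in either status (edgeR adjusted p from 0.318 to 0.632 in sham).

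A list of splicing kinases, SR proteins and Hnrnpf and Hnrnph genes, some of which respond to small temperature changes, gave 5 calls of 22 in sham and 4 in ADX. Of all tested genes 16.08% and 9.4% were called. No SR protein gene (Srsf) was among the calls in either status. The list's median peak-to-trough was 0.12 and 0.10, against 0.22 and 0.18 over all genes. The 5 peaks in sham lay between 14.9 and 18.7 h, and 0 of them in the first 12 h, where Cirbp and Rbm3 peaked. The largest were the CDC-like kinases Clk1 (0.28 ± 0.05, 18.7 h) and Clk4 (0.18 ± 0.05, 18.3 h), with Hnrnph3 (0.24 ± 0.04, 18.7 h) and the SR protein kinase Srpk1 (0.15 ± 0.04, 18.4 h). In ADX the count was 2 without the 3 libraries of highest muscle level and also 2 without the 5 with high Gh, where that of sham was 3. Leaving out single libraries gave 3 to 7 calls in sham, the fewest without CT08 replicate 1, and 1 to 4 in ADX, where 35 of 36 such fits gave fewer than 4, with 1 left without CT08 replicate 2, CT08 replicate 3, CT16 replicate 3 or CT20 replicate 2 and 2 left without CT04 replicate 1, CT08 replicate 1, CT12 replicate 2 or CT16 replicate 1.

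Of 6 tested genes reported to act on the pair or its proteins, edgeR called 1 in each status, against 16.08% of all tested genes in sham and 9.4% in ADX. It was Nfe2l2, which encodes the oxidative stress factor NRF2 (0.18 ± 0.04, peak at 13.9 h in sham), and it was also called lower in ADX (-0.08, edgeR adjusted p = 0.049). The lower call was lost without the 5 libraries with high Gh and in 26 of 36 fits that each left out 1 library, and the calls of rhythm were lost without the 5 libraries too. Sp1, which binds GC boxes, had a peak-to-trough of 0.11 ± 0.04 (adjusted p = 0.088). The temperature-gated channel gene Trpv4 had 0.38 ± 0.15 (adjusted p = 0.161). Of 9 reported targets of the proteins, 2 were called in sham and 1 in ADX, against the same shares of all genes. The count in sham was 1 without CT04 replicate 1, CT08 replicate 2, CT16 replicate 1, CT16 replicate 3 or CT20 replicate 2. Clock had 0.47 ± 0.07 in sham and 0.32 ± 0.07 in ADX and peaked at 21.7 h in sham. Rpa2, a subunit of the single-strand DNA-binding replication protein A, had 0.33 ± 0.09 with its sham peak at 5.67 h.

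Of 20 core clock genes, 18 were called in both statuses, against 1268 of all 22556 tested genes. The list's median peak-to-trough was 1.32 in sham and 0.92 in ADX, against 0.22 and 0.18 over all tested genes. Nr1d1, the repressor REV-ERB alpha, had the largest value (3.61 ± 0.22) and peaked at 7.99 h, near Rbm3 at 7.61 h, followed by the transcription factor Dbp (3.59 ± 0.25, 9.96 h). Npas2, a partner of BMAL1, had 2.79 ± 0.20 and a peak at 0.24 h, and the repressor Ciart 2.52 ± 0.21 and 10.5 h. In sham Cirbp, with 1.25, lay close to the median of this list and Rbm3, with 0.81, below it. In ADX Cirbp, with 1.17, lay above the list's median and Rbm3, with 0.79, below it.

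**Figure D5:**
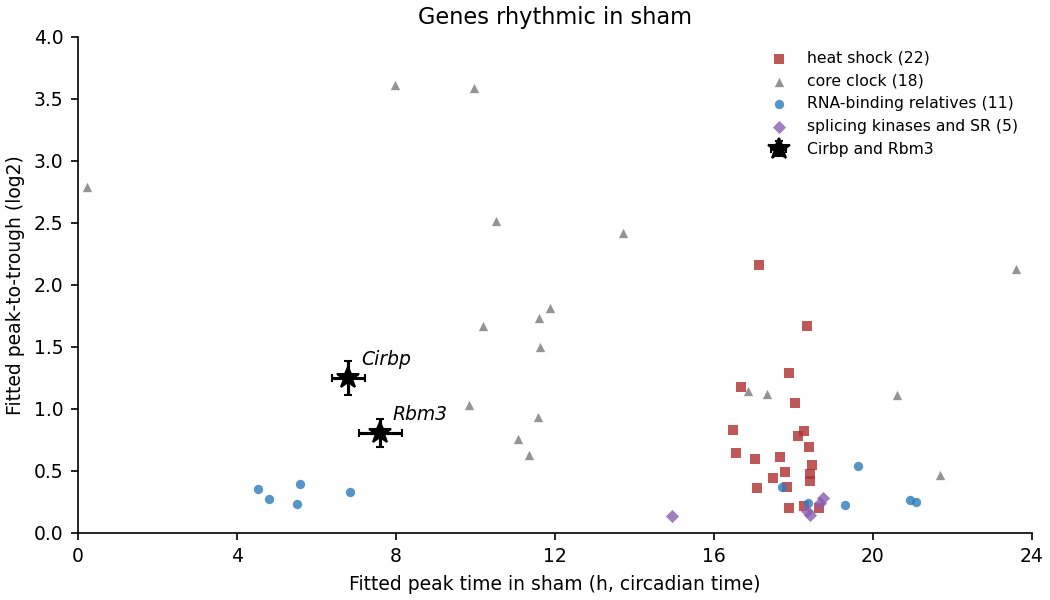
Fitted peak time in sham, in hours of circadian time, against fitted peak-to-trough on the log2 scale for genes called rhythmic in sham in 4 gene lists (number called in brackets), with Cirbp and Rbm3 as stars with bars of 1 SE. The 22 heat shock genes lie between 16.5 and 18.6 h, and Cirbp and Rbm3 lie at 6.8 and 7.6 h with larger values than the 11 RNA-binding relatives.

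The genes most like each member were found by Pearson r of log2 CPM over the 36 libraries among 13078 protein-coding genes averaging 5 CPM or more. All points share the sampling times, so r mainly orders genes by their course over the day. The highest r with Cirbp was 0.94 for Ankrd16, an ankyrin repeat protein, for Wdr6, a WD repeat protein, for the histone H3.3 gene H3f3b and for the zinc finger gene Zc3h6, followed by 0.93 for Trdmt1, an RNA methyltransferase. Among these 5, Zc3h6 had the largest peak-to-trough in sham (0.83 ± 0.12), below that of Cirbp, and all 5 peaked between 5.8 and 7.1 h. The lowest r was -0.97 for Ahsa2, a relative of the HSP90 activator AHSA1, followed by Hsph1 and Hsp90aa1 (-0.96 each), P4ha1, a collagen prolyl hydroxylase subunit, and Hspb1 (-0.95 each).

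For Rbm3 the highest r was 0.90 for Pspc1, a paraspeckle RNA-binding protein, for the poly(A) ribonuclease gene Parn and for Nr1d1, followed by 0.89 for the tubulin cofactor gene Tbcd and the glutathione transferase gene Gstt2. The lowest r was -0.93 for the histone gene Hist1h2bc, then -0.91 for Lman2l, a lectin of the secretory pathway. Chaperones or disulfide isomerases of the endoplasmic reticulum came next, Pdia6 and Calr at -0.90 and Pdia3 at -0.89. Cirbp and Rbm3 had r = 0.87 with each other, which placed Rbm3 at rank 55 in the list of Cirbp and Cirbp at rank 9 in that of Rbm3. Promoter windows were at hand for 10 of these 12 genes (the pair and the 10 with highest r). Rbm3 was without a window and was not searched. Among the 10 genes searched, TCCCCGCC was in the window of Cirbp alone, while GGGCGG was in those of 6 genes.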

How the data were processed

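Per the labels' protocols, 300 ng of cochlear RNA from each of 36 samples went into stranded messenger RNA libraries, sequenced in pools of 6 as single reads of 100 bases. The labels do not say which libraries shared a pool. STAR 2.4.0i and the build mm10 are named by the submitters' processing notes, with the counter, annotation and strand setting not given in the sources used here. Raw, whole-number counts by Ensembl gene were deposited by the authors, with a gene length column per the file headers. Column names gave a time 1 h before the label in 30 of 36 libraries. Each column was therefore assigned through status, replicate number and the single label within 1 h of it, and analyses used the label. Of the gene IDs, 37607 (96.4%) were found in GENCODE M21.

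Tests used edgeR 4.0.16 in R 4.3.3 (TMM scaling with factors from 0.981 to 1.03, filterByExpr, glmQLFit, glmQLFTest) on 22556 genes, leaving out 16461 with 0.0779% of the counts. A fit of 12 group means (24 residual degrees of freedom) compared ADX with sham and neighbouring times, and a fit of a 24 h cosine and sine in each status (30 residual degrees of freedom) gave rhythms. Adjusted p-values are Benjamini-Hochberg values over all genes tested, called under 0.05. Standard errors and intervals of peak-to-trough values and peak times came from the coefficients by the delta method. CPM were computed with TMM library sizes, and 0.5 was added before log2. Ratios and deviations were tested by 100000 two-sided permutations (numpy 2.4.6). Scripts were tested on simulated data. Alternatives were DESeq2 1.42.0, limma 3.58.1 (voom), other scalings, no filter, a replicate block, marker covariates, other forms of the rhythm, the column times, and libraries left out.

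The members and lists were chosen with earlier results of these data known. Named genes were both members, overlapping genes, up to 4 called genes of each list with the largest peak-to-trough in sham and those called between statuses, and the 5 genes of highest and lowest r with each member. Rbmx, Sp1, Trpv4 and Ybx1 fall outside that rule and were chosen after their values were seen. The regulator Prmt1 was not analysed here, and some list genes are not reported here. The labels do not state that samples were separate animals, so p-values measure only the spread between these samples, which may be technical. Replicates differed beyond sampling noise (chi-square over its degrees of freedom 5.49 to 22.7), and each was counted.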

Additional observations from a re-analysis of the deposited data

How the results depend on the processing

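The rhythms of Cirbp, Rbm3 and their ratio kept their call under each alternative run. A peak-to-trough cannot be negative, so it has no direction to lose, and peak times were not compared across alternatives. For the ratio, library totals repeat the main value because scaling cancels, and leaving out the muscle-high libraries, all ADX, leaves sham unchanged. The fall from CT12 to CT16 kept direction and call. Of 309 alternative values for the genes and relations, 292 kept sign and side of the threshold. They include the peak-to-trough values, whose sign was fixed. Cirbp over the mean of 6 times was called with DESeq2 (0.18), library totals (0.19, adjusted p = 0.0404) and the replicate block (0.18, adjusted p = 0.0429). Replicate numbers did not pair the libraries (median r of deviations -0.00846 for same-numbered pairs and 0.0101 for others, 15 of 36 libraries closest to their own number), and the block otherwise gave 1 gene at CT04.

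Reversals concerned differences between statuses that were not called. They were Rbm3 at CT08 with marker covariates (-0.0073), Rbm3 at CT20 without the 3 muscle-high libraries (-0.032), Rbm3 at CT24 with library totals (0.0052) and covariates (0.044), Cirbp at CT08 without the 5 Gh-high libraries (-0.056), and the difference in peak-to-trough of Rbm3 with limma-voom (0.0021), with any difference between times tested (0.0042) and without the 5 Gh-high libraries (0.13). The rise of Rbm3 from CT20 to CT24 lost its call with covariates (0.41 in sham, adjusted p = 0.366, and 0.45 in ADX, 0.126) and in sham when only that status was fitted (0.48, 0.0878). Without the Gh-high libraries, sham CT08 and ADX CT24 held a single library each. The ADX rises were then 0.46 for Rbm3 and 0.62 for Cirbp. The relation of Rbm3 to the heat shock score was called without the 3 muscle-high libraries (r = -0.43, permutation adjusted p = 0.0473).

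Counts over all genes moved more. DESeq2 called 77 genes at CT04, 7 at CT12, 20 at CT16, 183 at CT20, 645 over the mean, 1 for a difference in rhythm, and 429 in ADX and 328 in sham from CT20 to CT24. Without a filter the counts were 1 at CT04, 2 at CT16, 6 at CT20, 1411 rhythmic in ADX and 149 from CT20 to CT24 in ADX. With only the libraries compared they were 24 at CT04, 0 at CT20, 15 at CT24, and 143 in ADX and 82 in sham from CT20 to CT24. Without the muscle-high libraries they were 9 at CT04, 2 at CT12 and 0 at CT20. Without the Gh-high libraries they were 2 at CT04, 1 at CT08, 11 over the mean, 2 from CT20 to CT24 in ADX and 1551 from CT12 to CT16 in sham. Covariates gave 1 at CT12, 0 at CT20, 1 over the mean, and 160 in ADX and 44 in sham from CT20 to CT24. Limma-voom gave 0 at CT20. The cause of these shifts was not tested, and without the Gh-high libraries sham CT08 and ADX CT24 held a single library each.

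Leaving out single libraries gave 0 to 10 genes at CT04, 0 to 2 at CT12, 0 to 24 at CT16, 0 to 141 at CT20, 0 to 1 at CT24, 21 to 302 over the mean, 1334 to 2430 rhythmic in ADX, 2711 to 4131 in sham, and 0 to 1 for a difference in rhythm. The step from CT12 to CT16 gave 379 to 1121 in ADX and 1078 to 2820 in sham, and that from CT20 to CT24 88 to 356 and 46 to 248. Cirbp over the mean ranged from 0.16 to 0.20 and was called without ADX CT16 replicate 3, ADX CT20 replicate 1 or replicate 1 of sham CT08, CT12, CT16 or CT20. Rbm3 ranged from -0.087 to 0.16 at CT08, -0.067 to 0.13 at CT20, -0.087 to 0.062 at CT24 and -0.095 to 0.058 for the difference in peak-to-trough. The rise from CT20 to CT24 ranged from 0.40 to 0.56 in sham and 0.34 to 0.54 in ADX for Rbm3 and from 0.51 to 0.68 in sham for Cirbp. The relation to the heat shock score ranged from r = -0.83 to -0.74 for Cirbp, called in 36 of 36, and from -0.51 to -0.28 for Rbm3, called without sham CT20 replicate 3 (permutation).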
